A study of Homo sapiens with 8 samples.

Results

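The response to gefitinib of A549, a human lung adenocarcinoma cell line without an activating EGFR mutation, was measured on 4 of the 8 arrays of the series. The groups were A549 in 2D with gefitinib, A549 in 2D without inhibitor, A549 in 3D with gefitinib and A549 in 3D without inhibitor, with 1 array each, so that each culture gave 1 pair of a gefitinib and a control array. The other 4 arrays held HCC827, a human lung adenocarcinoma line with an activating EGFR mutation, in the same 4 conditions. The 2D cultures were started from 200000 cells in dishes of 21 cm2 and kept for 7 days, and the 3D cultures from 100000 cells on a collagen scaffold and kept for 14 days. The gefitinib arrays came from cultures exposed to 1 µM of this EGFR kinase inhibitor, and the control arrays from cultures without it. Exposure in 3D began on day 11 and covered the last 3 days. The labels also give day 4 as a start, again under the name of 3D, so taking it for the 2D cultures is a reading of the labels, and how long the 2D exposure lasted is not stated there. RNA was prepared with different kits in the 2D and 3D cultures, which therefore cannot be told apart from the culture itself. Gefitinib and control arrays were compared within a culture only.

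EGFR is a receptor tyrosine kinase that, once bound by a ligand such as epiregulin or TGF-alpha, signals through RAS, RAF, MEK and ERK and through PI3K and AKT. ERK drives the transcription of growth genes and of its own inhibitors, the DUSP phosphatases and the SPRY and SPRED proteins, while AKT keeps FOXO transcription factors out of the nucleus. Gefitinib blocks the ATP site of EGFR and acts most strongly on receptors with activating mutations.

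The A549 arrays carried the markers of the line. The keratins KRT8 and KRT18, the aldehyde dehydrogenases ALDH1A1 and ALDH3A1, the aldo-keto reductase AKR1B10 and the carbonic anhydrase CA12 lay between 13.20 and 14.69 on the log2 scale on all 4 arrays, where the array medians were 7.30 to 7.34. EPCAM, an epithelial adhesion molecule, was above the median on all 4 arrays, at 7.72 to 9.77, and NKX2-1, a lung lineage factor, and CDKN2A, known to be deleted in A549, were below the median on all 4. Of markers of other cells, 0 of 6 fibroblast and 0 of 3 endothelial genes passed the filter on low values, and of the 4 leukocyte genes CD14 and CD68 passed it while PTPRC and CD3E did not. The 3' minus 5' signal of actin, a sign of RNA quality, was 1.74 on the 3D gefitinib array and 1.67 on the 3D control array, and -0.14 on the 2D gefitinib array and -0.05 on the 2D control array, so it differed between cultures far more than within a pair. The HCC827 2D arrays went against their labels. DUSP6, an ERK phosphatase, was 3.64 log2 units higher on the array labelled gefitinib than on the one labelled control in HCC827 2D, against a difference of -3.32 in HCC827 3D. They were therefore left out, and HCC827 is represented below by its 3D pair. The choice was made with these DUSP6 values known, so the contrasts of DUSP6 and other ERK genes below are not independent of it.

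Gefitinib went with small differences in A549. Over the 11056 genes tested, of 18244 with a named probe set, the standard deviation of the gefitinib minus control difference was 0.166 log2 units in the 2D pair and 0.164 in the 3D pair, against 0.403 in the HCC827 3D pair. A difference of 1 log2 unit, a 2-fold change, or more was reached by 3 genes in the 2D pair and by 1 gene in the 3D pair, against 405 genes in HCC827 3D. Across genes, the 2D and 3D differences, which share no array, had a Pearson correlation of 0.234 and a Spearman correlation of 0.237. This describes 11056 genes that are not independent of each other.

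Both pairs were higher with gefitinib for 4540 genes (41.1%), both were lower for 2075 genes (18.8%), and the pairs went opposite ways for 4441 genes (40.2%). The excess of higher genes went with the filter on low values and with scaling. The median tested gene was 0.047 higher in 2D and 0.039 higher in 3D, whereas the 7188 genes set aside as low had medians of -0.044 and -0.059. With cyclic loess scaling of the arrays, 28.4% of genes were higher and 28.3% lower in both pairs, and with each array centred on its median these shares were 47.2% and 14.5%. Every share of higher or lower members given below is to be read against these backgrounds. At a size of 0.3 log2 units or more (1.23-fold) in each pair, 82 genes (0.742%) were higher in both, 16 genes (0.145%) were lower in both and 15 genes (0.136%) went opposite ways. At 0.5 or more (1.41-fold), 4 genes (0.0362%) were higher in both, 4 genes (0.0362%) were lower in both and 1 gene (0.00904%) went opposite ways.

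**Figure D1:**
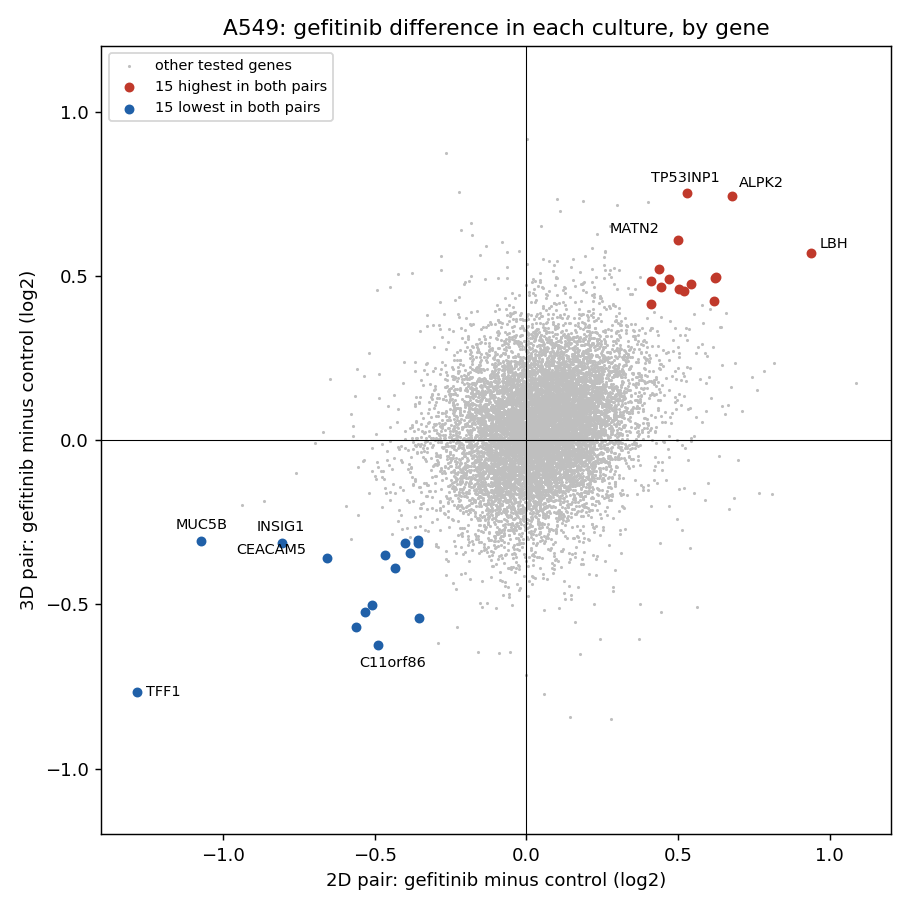
Each point is 1 of the 11056 tested genes, with the log2 gefitinib minus control difference of the A549 2D pair on the x axis and of the A549 3D pair on the y axis, 1 array against 1 in each. Red and blue points are the 15 genes each way with the largest smaller-of-both differences; of the genes lower in both, TFF1 lies farthest from zero at -1.28 and -0.77, and most genes form a round cloud within about 0.5 of zero.

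No gene passed the test in A549. With the arrays as deposited, limma fitted on the 4 A549 arrays with culture as the pairing term called 0 of 11056 genes (0%) at a Benjamini-Hochberg adjusted p under 0.05, and the smallest adjusted p was 0.0552, for TFF1 and ALPK2. At an unadjusted p under 0.05 it gave 1386 genes (12.5%), of which 1094 were higher (9.9%) and 292 lower (2.64%). The single residual degree of freedom is the change of the gefitinib difference between cultures, so the error measures agreement of 2D with 3D and not scatter between replicates of a condition. The call depended on scaling. The same test called 76 genes after cyclic loess (46 higher and 30 lower) and 53 after median centring (45 higher and 8 lower), with 42 genes called under both. The genes below are accordingly described by their values in each array.

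The lowest gene in both pairs was TFF1, a trefoil peptide secreted with mucins. Its signal was 10.40 with gefitinib and 11.68 without in 2D, and 11.75 with gefitinib and 12.52 without in 3D. Both gefitinib arrays thus lay below their own control, at 0.411 and 0.587 of its signal, although the 3D gefitinib array lay above the 2D control. The mean difference was -1.02 ± 0.12 (SE from limma, 2 pairs, adjusted p = 0.0552), and the gene has 1 probe set on the array. MUC5B, a gel-forming airway mucin, stood at 10.52 with gefitinib and 11.59 without in 2D, and at 14.01 with gefitinib and 14.32 without in 3D. Its difference was -1.07 in 2D and -0.31 in 3D, and the 3 of its 4 probe sets that lay above the array median were all lower in both pairs.

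The other genes lower in both pairs included cell-surface and extracellular proteins. CEMIP, which takes part in hyaluronan breakdown, was at 6.92 with gefitinib and 7.48 without in 2D and at 7.55 and 8.12 in 3D, differences of -0.56 and -0.57. CD55, which protects cells from complement, was at 11.55 with gefitinib and 11.98 without in 2D and at 11.44 and 11.83 in 3D, and all 7 of its probe sets were lower in both pairs. For both, unlike TFF1, the differences in 2D and 3D were nearly equal. CEACAM5, the carcinoembryonic antigen, was at 10.83 with gefitinib and 11.49 without in 2D and at 11.18 and 11.54 in 3D, with 3 of 3 probe sets lower in both. STC1, the secreted glycoprotein stanniocalcin, was at 8.94 with gefitinib and 9.41 without in 2D and at 10.44 and 10.79 in 3D, with 4 of 4 probe sets lower in both. NID2, a basement membrane protein, differed by -0.40 in 2D and -0.31 in 3D. For CD55, CEACAM5, STC1 and NID2 every probe set was lower in both pairs, and for CEMIP 1 of 2 was.

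Others in this group act inside the cell. INSIG1, which holds the sterol-regulated SREBP factors in the endoplasmic reticulum, is itself an SREBP target. INSIG1 was at 9.10 with gefitinib and 9.90 without in 2D and at 8.73 and 9.04 in 3D. Its differences were -0.80 and -0.31, and 3 of 3 probe sets were lower in both pairs. ERO1A, an oxidase of protein folding known to respond to low oxygen, differed by -0.36 and -0.30, but only 1 of its 2 probe sets was lower in both. DHRS9, a retinol dehydrogenase, differed by -0.53 and -0.52, and C11orf86 by -0.49 and -0.62, each on its only probe set. MALAT1, a nuclear noncoding RNA, differed by -0.51 and -0.50, with 2 of 3 probe sets lower in both. SAPCD2 differed by -0.35 in 2D and -0.54 in 3D, SPEN, a transcriptional corepressor, by -0.38 and -0.34, and IRF3, a transcription factor of the antiviral response, by -0.36 and -0.31. Of their probe sets 1 of 2, 2 of 3 and 5 of 6 were lower in both, in that order. ERO1A was the last of these 15 genes at -0.30, and PRODH, just outside, also had a smaller difference of -0.30.

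ALPK2, an alpha-kinase, led the genes higher in both pairs. It was at 8.56 with gefitinib and 7.88 without in 2D, and at 10.45 with gefitinib and 9.71 without in 3D. These are 1.6 and 1.68 times the control signal, and the mean difference was 0.71 ± 0.08 (SE from limma, 2 pairs, adjusted p = 0.0552). LBH, a transcriptional regulator, was at 10.47 with gefitinib and 9.53 without in 2D and at 10.06 and 9.50 in 3D. Both gefitinib arrays of LBH lay above both control arrays, and 3 of 3 probe sets were higher in both pairs. TP53INP1, a p53-induced protein with a role in autophagy, was at 9.69 with gefitinib and 9.16 without in 2D and at 9.99 and 9.24 in 3D. Again both gefitinib arrays exceeded both controls, on the 1 of its 2 probe sets that lay above the array median. DRAM1, another p53-induced protein of autophagy that sits in the lysosome membrane, differed by 0.41 in 2D and 0.42 in 3D, with 2 of 2 probe sets higher in both.

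The rest included matrix and signalling genes. MATN2, the matrix protein matrilin-2, was at 9.08 with gefitinib and 8.58 without in 2D and at 8.89 and 8.28 in 3D, and CCN1, a matrix-associated target of the YAP coactivator, at 8.56 and 7.94 in 2D and at 8.03 and 7.61 in 3D. Both gefitinib arrays were above both controls for each of the pair, and 2 of 2 CCN1 probe sets were higher in both pairs. GPC6, a glypican of the cell surface, differed by 0.44 in 2D and 0.47 in 3D. PLCB1, a phospholipase C, differed by 0.47 and 0.49, RGL1, an exchange factor for the Ral GTPases, by 0.44 and 0.52, and SNX18, a sorting nexin of endosomes, by 0.63 and 0.50. Fewer of their probe sets were higher in both pairs, 2 of 4 for GPC6, 2 of 3 for PLCB1, 3 of 4 for RGL1 and 2 of 6 for SNX18. KCNJ16, a potassium channel, differed by 0.54 and 0.48, HSPA2, an HSP70 chaperone, by 0.52 and 0.45, and GALNTL6, a glycosyltransferase-like protein, by 0.62 and 0.49. NATD1 and KLHL24, an adaptor of a ubiquitin ligase, closed the list at 0.50 and 0.46 and at 0.41 and 0.48, and 1 of 2 NATD1 and 1 of 3 KLHL24 probe sets were higher in both, as were 2 of 4 for GALNTL6 and 2 of 2 for KCNJ16. The smaller difference was 0.41 for DRAM1, the last gene inside, and also 0.41 for S1PR3, the first outside.

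The adjusted p of these 30 genes was at most 0.247 with the arrays as deposited. After cyclic loess scaling 29 of the 30 passed the threshold, and after median centring 23 did, with 22 passing under both. The 30 genes were chosen for large differences shared by both pairs of the same arrays. The error of the test measures how well those pairs agree, so the choice itself favours passing. The counts of passing genes are therefore a description and not an independent check.

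**Figure D2:**
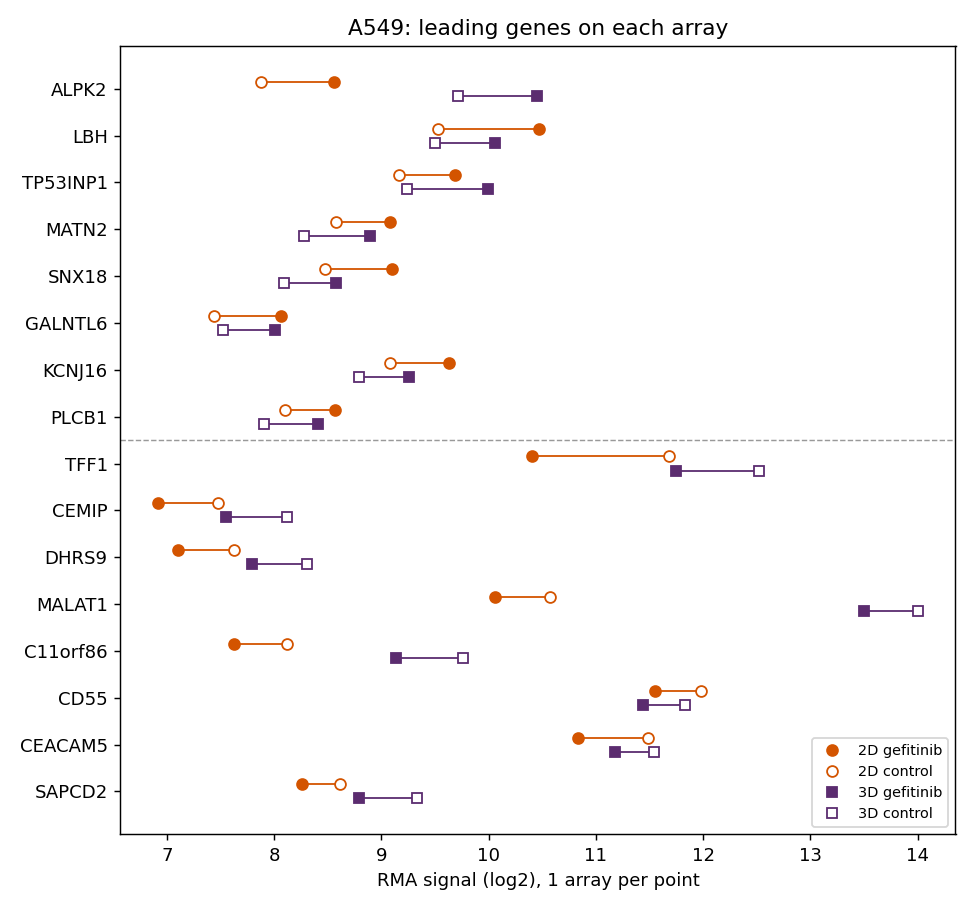
RMA log2 signal (x axis) of 8 genes higher and 8 genes lower in both A549 pairs, 1 array per symbol; filled symbols are gefitinib and open symbols control, circles 2D and squares 3D, and a line joins each pair. For ALPK2 and MALAT1 the cultures lie further apart than gefitinib and control do, while LBH, TP53INP1 and MATN2 have both gefitinib arrays above both controls.

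The targeted receptor itself showed no common direction on the probe set kept. Of the 8 EGFR probe sets 4 were lower in both pairs, among them 2 of the 4 above the array median. On the kept probe set EGFR was at 8.36 with gefitinib and 8.21 without in 2D. In 3D it was at 8.43 with gefitinib and 8.66 without, for a mean difference of -0.04 ± 0.10. Its partners ERBB2 and ERBB3 were higher in both pairs, by 0.16 and 0.12 and by 0.08 and 0.19, as was LRIG1, an inhibitor of the receptors, by 0.07 and 0.25. ERRFI1, an inhibitor of EGFR that ERK signalling induces, differed by 0.07 in 2D and -0.27 in 3D. Of the 5 tested receptor-level genes, 3 were thus higher in both pairs (41.1% of all genes were) and 0 lower (18.8%).

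Of the ligands, EREG, epiregulin, was the one lower in both pairs. It was at 8.45 with gefitinib and 8.73 without in 2D and at 8.60 and 8.78 in 3D. NRG1, the ligand of ERBB3, was at 10.11 with gefitinib and 9.59 without in 2D and at 8.90 and 8.72 in 3D, and HBEGF differed by 0.23 and 0.07. TGFA went opposite ways, at -0.02 in 2D and 0.24 in 3D. None of the 4 tested ligands passed the test. Among 9 tested receptor kinases that can bypass EGFR, 3 were higher in both pairs (41.1% of all genes were) and 2 lower (18.8%). IGF1R differed by 0.46 in 2D and 0.19 in 3D and FGFR3 by 0.29 and 0.21, whereas MST1R differed by -0.22 and -0.41. AXL was at 9.89 with gefitinib and 9.40 without in 2D but at 11.16 with gefitinib and 11.40 without in 3D.

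Genes downstream of ERK were lower with gefitinib mainly in the 2D pair. Of 10 tested feedback inhibitors, 8 were below control in 2D (37.8% of all genes were) and 6 in 3D (39.9%). In both pairs 5 were lower (18.8% of all genes were) and 1, DUSP1, was higher. The list median was -0.15 in 2D and -0.05 in 3D. DUSP6 was at 9.02 with gefitinib and 9.48 without in 2D, and at 9.75 with gefitinib and 9.81 without in 3D. The 2D difference of -0.46 was thus not matched in 3D, where it was -0.06, and the mean was -0.26 ± 0.10 (adjusted p = 0.36 in limma). DUSP4 differed by -0.21 and -0.10, DUSP5 by -0.30 and -0.04, SPRED1 by -0.13 and -0.09, and SPRY1 by -0.06 and -0.13. SPRY4 differed by -0.14 in 2D and 0.10 in 3D and SPRED2 by -0.15 and 0.18. SPRY2 differed by -0.29 and 0.05 and SPRED3 by 0.02 and -0.12. These 4 had no common direction on the probe set kept, although 2 of 3 SPRY4 probe sets were lower in both pairs.

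Among 20 tested transcriptional targets and early response genes of ERK, 7 were lower in both pairs (18.8% of all genes were) and 3 higher (41.1%). The list median was -0.17 in 2D and 0.05 in 3D. EGR1, an immediate early factor, was at 7.56 with gefitinib and 8.10 without in 2D and at 8.45 and 8.51 in 3D. KCNN4, a calcium-activated potassium channel, differed by -0.31 and -0.25, PLAUR, the urokinase receptor, by -0.28 and -0.21, EPHA2 by -0.26 and -0.08, LIF by -0.09 and -0.43, FOS by -0.24 and -0.02, and FOSL1 by -0.07 and -0.06. KCNN4 and PLAUR were the members lower by more than 0.2 in both cultures. The ETV factors went opposite ways in the pairs on the probe sets kept. ETV4 differed by -0.49 in 2D and 0.46 in 3D, ETV5 by -0.31 and 0.21, and ETV1 by -0.29 and 0.14. However, 2 of 4 ETV5 probe sets were lower in both pairs. CCND1, cyclin D1, also went opposite ways, at 10.98 with gefitinib and 11.16 without in 2D and at 11.22 with gefitinib and 10.99 without in 3D. None of its 4 probe sets was higher in both pairs. PHLDA1 (-0.15 and 0.04), HMGA2 (-0.18 and 0.07), IER2 (-0.11 and 0.07), FOSB (-0.17 and 0.07) and ELK3 (-0.05 and 0.21) were also lower in 2D only, and IER3 (0.20 and -0.09) in 3D only. MYC (0.03 and 0.17), JUNB (0.12 and 0.02) and EPHA4 (0.16 and 0.11) were higher in both.

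**Figure D3:**
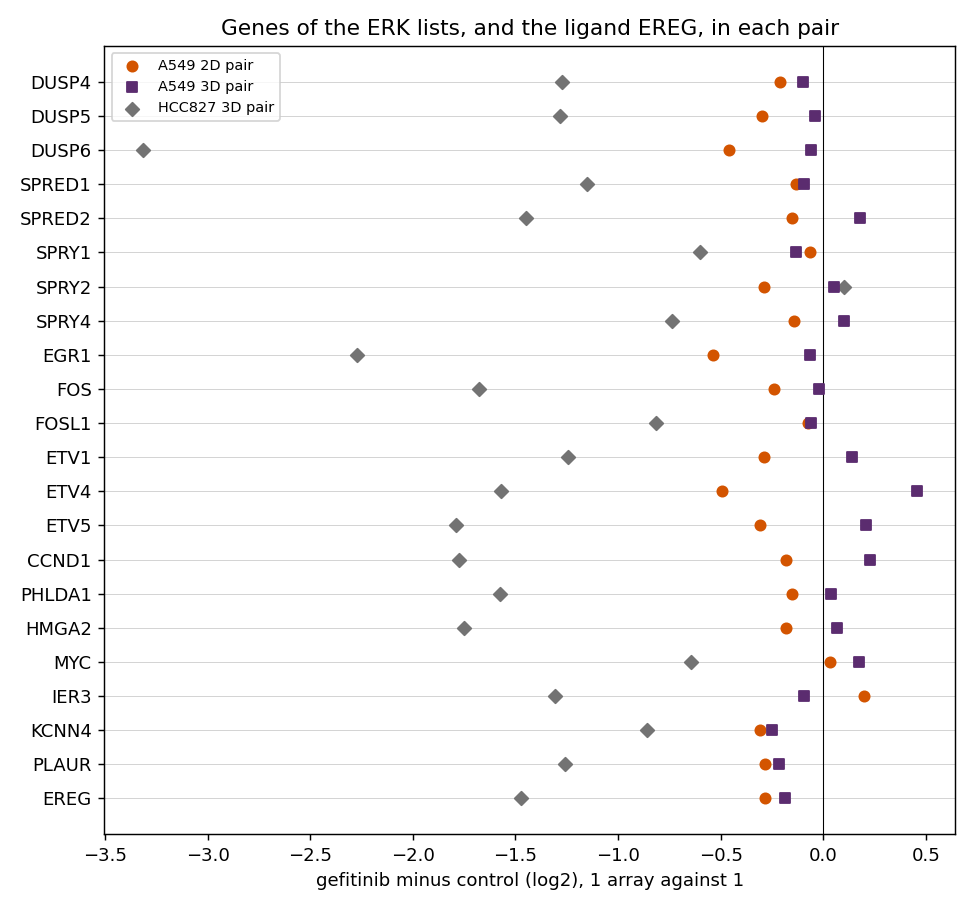
Log2 gefitinib minus control difference (x axis) of ERK feedback and ERK transcription genes and of the ligand EREG, 1 array against 1, for the A549 2D pair (orange circles), the A549 3D pair (purple squares) and the HCC827 3D pair (grey diamonds). The A549 symbols lie between -0.54 and 0.46, while most HCC827 symbols lie further left, down to -3.32 for DUSP6.

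The same genes differed widely from HCC827 in 3D. In a limma fit of the 4 A549 and the 2 HCC827 3D arrays, the A549 response minus the HCC827 3D response passed an adjusted p under 0.05 for 2157 of 11056 genes (19.5%), with the A549 difference above that of HCC827 3D for 1843 (16.7%) and below it for 314 (2.84%). The A549 response here is the mean of its 2D and 3D pairs, while that of HCC827 is from 3D only. HCC827 has 1 pair here, so it has no replicate check of its own. The test assumes that it varies as A549 does between its cultures, and its calls compare these arrays under that assumption. With all 8 arrays, which adds the HCC827 2D arrays that go against their labels, the count was 0. The GAPDH 3' minus 5' signal was 0.54 with gefitinib and 0.55 without in A549 3D, against 1.57 with gefitinib and 0.97 without in HCC827 3D, and its part in the result was not tested. After cyclic loess the count was 1356, of which 635 were higher in A549. DUSP6 had a contrast of 3.06 ± 0.18 (adjusted p = 7.35e-05 in limma), and its HCC827 3D signal was 8.16 with gefitinib and 11.48 without. Of the 10 feedback inhibitors 7 passed with A549 above HCC827, as did 17 of 20 ERK transcription genes, and 0 of either list passed the other way. ETV5 contrasted by 1.74 ± 0.20 (adjusted p = 0.00083 in limma), CCND1 by 1.80 ± 0.18 (adjusted p = 0.000404 in limma) and SPRY4 by 0.72 ± 0.16 (adjusted p = 0.0142 in limma). EGFR contrasted by 0.51 ± 0.18 (adjusted p = 0.0723 in limma), which did not pass. The sign of this EGFR contrast depended on the probe set kept.

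Genes on the PI3K and FOXO side were higher more often than lower. Of 14 tested members 9 were higher in both pairs (41.1% of all genes were) and 0 lower, with list medians of 0.11 in 2D and 0.23 in 3D. The median of the mean difference was 0.16, or 0.09 after cyclic loess. IRS1, the adaptor that links insulin and IGF receptors to PI3K, was at 10.26 with gefitinib and 9.86 without in 2D and at 10.13 and 9.75 in 3D. CDKN1B, the cyclin-dependent kinase inhibitor p27, was at 11.06 with gefitinib and 10.57 without in 2D and at 10.71 and 10.50 in 3D. For both genes each gefitinib array exceeded both controls, and neither passed the test (adjusted p = 0.219 for IRS1 and 0.247 for CDKN1B in limma). BCL6, a transcriptional repressor and FOXO target, differed by 0.24 and 0.37, TRIB1, a pseudokinase, by 0.15 and 0.49, and FOXO3 by 0.23 and 0.07. IRS2, in contrast, differed by -0.52 in 2D and 0.26 in 3D, and CCNG2, an atypical cyclin, by -0.04 and 0.39.

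TXNIP, which binds thioredoxin and limits glucose uptake, was at 9.18 with gefitinib and 8.78 without in 2D and at 10.51 with gefitinib and 10.27 without in 3D. Its promoter is printed because it was the only 1 of 13 list promoters found in RefSeq that holds the forkhead letters TGTTTAC on either strand. It lies on the minus strand of chromosome 1 (GRCh38.p14), chr1:145996530-145996829, and runs from 250 bases before the start of the gene to 50 after it, with the match, on the opposite strand, in capitals and beginning at base -124 from the start.
TXNIP promoter: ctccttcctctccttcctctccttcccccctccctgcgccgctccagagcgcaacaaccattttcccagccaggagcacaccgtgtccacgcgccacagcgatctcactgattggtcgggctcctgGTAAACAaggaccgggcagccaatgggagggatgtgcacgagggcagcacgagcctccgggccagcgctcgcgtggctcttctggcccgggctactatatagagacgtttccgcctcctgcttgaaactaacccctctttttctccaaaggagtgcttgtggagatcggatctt
The same letters occur in 931 of 27305 RefSeq promoters of this length (3.41%), so the share in the list, 1 of 13, is a description of these windows. TXNIP also differed between the lines, at a contrast of 1.16 ± 0.15 (adjusted p = 0.00127 in limma), since its HCC827 3D signal was 11.54 with gefitinib and 12.38 without.

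Other inhibitors of the cell cycle were higher in 2D. All 7 tested members lay above control in the 2D pair (62.2% of all genes did) and 3 did in 3D (60.1% of all genes). CDKN1C, the inhibitor p57, was at 7.54 with gefitinib and 7.13 without in 2D and at 7.54 and 7.21 in 3D, and RBL2, a retinoblastoma-like protein, differed by 0.17 and 0.23. These and CDKN1B were the 3 members higher in both. CDKN1A, the inhibitor p21, differed by 0.15 and -0.06, and RB1 by 0.11 and -0.01.

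Genes of mitosis split the cultures. All 28 tested members were lower with gefitinib in the 3D pair (39.9% of all genes were), with a median of -0.38 and a range from -0.85 to -0.14. In the 2D pair 21 of the 28 were higher (62.2% of all genes were), with a median of 0.10. TOP2A, the topoisomerase of dividing cells, was at 10.94 with gefitinib and 10.66 without in 2D, and at 9.94 with gefitinib and 10.79 without in 3D. MKI67, the proliferation antigen Ki-67, was at 8.97 with gefitinib and 9.02 without in 2D and at 8.40 with gefitinib and 9.05 without in 3D. KIF2C, a kinesin of the spindle, was at 9.37 with and without gefitinib in 2D and at 8.12 with gefitinib and 8.84 without in 3D. The 3D gefitinib array was thus the lowest of the 4 A549 arrays for each of these genes. UBE2C differed by 0.18 in 2D and -0.65 in 3D, BUB1 by 0.06 and -0.52, and CDC20 by 0.01 and -0.48. In bulk cultures, fewer cells in mitosis and less of each RNA per cell cannot be told apart. In HCC827 3D all 28 were lower too (65.8% of all genes were), with a median of -1.33. Of these, 26 passed the contrast with A549 above, as 16.7% of all genes did. The A549 side of that contrast takes in the 2D pair, where most of these genes were higher.

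DNA replication genes were divided. Of 33 tested, 12 were lower in both pairs (18.8% of all genes were) and 8 higher (41.1%), and the medians were 0.00 in 2D and -0.07 in 3D. TK1, thymidine kinase, was at 10.44 with gefitinib and 10.28 without in 2D and at 9.44 with gefitinib and 9.99 without in 3D. MCM2, a subunit of the replicative helicase, was higher by 0.18 in both, and CDC6, which loads that helicase, differed by -0.33 and -0.01. RRM2, a subunit of ribonucleotide reductase, differed by -0.15 in 2D and -0.19 in 3D. Against HCC827 3D, where all 33 were lower (65.8% of all genes were), 29 passed with A549 above, as 16.7% of all genes did. RRM2 contrasted by 3.04 ± 0.14 (adjusted p = 2.7e-05 in limma).

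**Figure D4:**
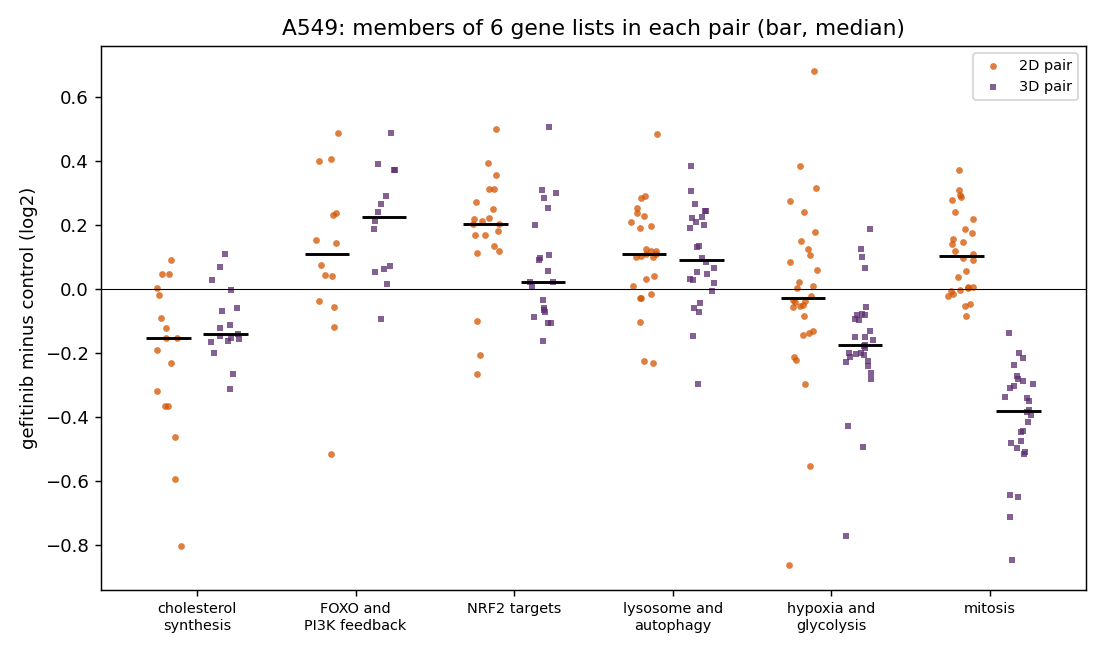
Log2 gefitinib minus control difference (y axis) of the tested members of 6 gene lists in the A549 2D pair (orange circles) and the A549 3D pair (purple squares), each point 1 gene and each bar the list median. Mitosis genes lie around or above zero in 2D and all below it in 3D, and most cholesterol synthesis genes lie below zero in both pairs.

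Most cholesterol synthesis genes were lower in both cultures. Of 17 tested members 12 were lower in both pairs, against 18.8% of all genes, and 2 were higher, with medians of -0.15 in 2D and -0.14 in 3D. The median of the mean difference was -0.15, and it was -0.21 after cyclic loess and -0.13 after median centring. DHCR7, which makes cholesterol in the last step of its pathway branch, was at 9.21 with gefitinib and 9.80 without in 2D and at 8.52 and 8.72 in 3D. MSMO1, a sterol oxidase, was at 10.16 with gefitinib and 10.53 without in 2D and at 9.74 and 10.01 in 3D. CYP51A1, lanosterol demethylase, differed by -0.46 and -0.16, SQLE, squalene epoxidase, by -0.37 and -0.12, IDI1, an isomerase of isoprenoid units, by -0.32 and -0.16, and MVD, a decarboxylase of the mevalonate pathway, by -0.23 and -0.17. For each of these 6 genes and for INSIG1 the larger difference lay in 2D. NSDHL and TM7SF2 were the members higher in both, by 0.05 and 0.03 and by 0.00 and 0.11. None passed the test (the lowest adjusted p among DHCR7, MSMO1 and INSIG1 was 0.219 in limma). The sterol element TCACNCCAC was found on either strand in 1 of 16 list promoters, that of SREBF2, whose mean difference was -0.05, and in 313 of 27305 promoters of all genes (1.15%).

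Fatty acid synthesis ran the same way, with 7 of 11 tested genes lower in both pairs (18.8% of all genes were) and 0 higher (41.1%). Its medians were -0.13 in 2D and -0.10 in 3D. FADS2, a fatty acid desaturase, was at 9.81 with gefitinib and 10.30 without in 2D and at 10.56 and 10.68 in 3D. SCD, the stearoyl-CoA desaturase, differed by -0.24 and -0.15, ELOVL6, an elongase, by -0.13 and -0.24, and SREBF1, the SREBP gene of fatty acid synthesis, by -0.15 and -0.13. ACLY, which supplies acetyl-CoA, differed by 0.31 in 2D and -0.02 in 3D. SCD was lower by more in HCC827 3D, at 8.90 with gefitinib and 10.90 without, a contrast of 1.81 ± 0.15 (adjusted p = 0.000212 in limma).

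Hypoxia and glycolysis genes were lower mainly in 3D. There 26 of 30 tested were below control (39.9% of all genes were), with a median of -0.18, against a median of -0.03 in 2D. In both pairs 14 were lower (18.8% of all genes were). ALDOC, an aldolase, was at 7.16 with gefitinib and 8.03 without in 2D and at 10.51 with gefitinib and 10.70 without in 3D. ANGPTL4, a lipase inhibitor induced by hypoxia, was at 7.62 with gefitinib and 7.56 without in 2D and at 11.31 with gefitinib and 12.08 without in 3D. PFKFB4, a regulator of glycolysis, differed by -0.13 and -0.49, ANKRD37 by -0.15 and -0.43, P4HA1, a collagen hydroxylase, by -0.56 and -0.08, and PKM, pyruvate kinase, by -0.30 and -0.21. In HCC827 3D the list median was -1.62, and 27 of 30 passed the contrast with A549 above, as 16.7% of all genes did. The stress gene DDIT4, an inhibitor of mTORC1, differed by -0.23 and -0.34 in A549 and contrasted by 2.61 ± 0.16 (adjusted p = 7.35e-05 in limma).

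The IGF binding proteins also differed between the cultures. Of 7 tested, 5 were higher in 2D (62.2% of all genes were) and 0 in 3D (60.1%), with medians of 0.11 and -0.34. IGFBP5 was at 7.15 with gefitinib and 6.58 without in 2D and at 10.52 with gefitinib and 11.03 without in 3D. IGFBP1 differed by 0.23 and -0.36, while IGFBP2, at -0.08 and -0.36, and IGFBP3, at -0.13 and -0.34, were lower in both. ATF4 and unfolded protein genes had 6 of 25 higher in both (41.1% of all genes were) and 7 lower (18.8%). STC2, a stanniocalcin, differed by -0.24 and -0.43 and TRIB3 by -0.37 and -0.18, whereas XBP1, a factor of the unfolded protein response, differed by 0.27 and 0.25.

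For targets of NRF2, the antioxidant factor that is constitutively active in A549, 12 of 21 tested were higher (41.1% of all genes were) and 2 lower in both pairs, with medians of 0.20 in 2D and 0.02 in 3D. The median of their mean difference was 0.13, against 0.05 after cyclic loess. TXNRD1, thioredoxin reductase, was at 13.60 with gefitinib and 13.10 without in 2D and at 13.02 and 12.74 in 3D. HMOX1, heme oxygenase, was at 11.13 with gefitinib and 10.73 without in 2D and at 9.34 and 9.04 in 3D. SRXN1, sulfiredoxin, differed by 0.27 and 0.51, ABCC2, an export pump, by 0.36 and 0.31, and TKT, transketolase, by 0.31 and 0.25. ALDH3A1 and GPX2 were the members lower in both. NFE2L2, which encodes NRF2 and was listed with targets of the aryl hydrocarbon receptor, differed by 0.33 and 0.35, and CYP1B1, a cytochrome P450 of that receptor, by 0.57 and 0.19. Of 8 tested genes of that list 4 were higher (41.1% of all genes were) and 1 lower (18.8%) in both.

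Heat shock genes were higher in both pairs for 9 of 13 tested (41.1% of all genes were) and lower for 0 (18.8%). Their median mean difference was 0.10, or 0.05 after cyclic loess. HSPA1B, an inducible HSP70, was at 10.95 with gefitinib and 10.65 without in 2D and at 10.78 and 10.45 in 3D, and HSP90AB1 was at 13.07 and 12.84 in 2D and at 12.75 and 12.42 in 3D. DNAJB1, a co-chaperone, differed by 0.26 and 0.25. Lysosome and autophagy genes were higher in both for 15 of 26 (41.1% of all genes were) and lower for 1 (18.8%), ATG9B. NPC2, a lysosomal cholesterol carrier, was at 11.57 with gefitinib and 11.09 without in 2D and at 11.93 and 11.62 in 3D. MAP1LC3B, which coats autophagosomes, differed by 0.29 and 0.24, SQSTM1, an autophagy receptor, by 0.21 in each, and CTSA, a cathepsin, by 0.19 and 0.23. The list median was 0.09, or 0.04 after cyclic loess. Of p53 targets 10 of 19 were higher in both (41.1% of all genes were) and 4 lower (18.8%). Beside TP53INP1, SESN2, a sestrin, differed by 0.37 and 0.25, but CDKN1A and MDM2, the best known p53 targets, did not share that direction, MDM2 at -0.25 and -0.05.

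YAP targets were higher in both pairs for 9 of 14 tested (41.1% of all genes were) and lower for 1, AMOTL1. Their medians were 0.12 in 2D and 0.23 in 3D. The median of the mean difference was 0.14, or 0.09 after cyclic loess. Besides CCN1, AJUBA, a junction scaffold, was at 9.35 with gefitinib and 8.85 without in 2D and at 9.21 and 8.95 in 3D, while CCN2 differed by -0.11 and 0.20. AMOTL2 differed by 0.29 and 0.27 and LATS2, a kinase that restrains YAP, by 0.18 and 0.31. In the ID and BMP list 5 of 9 were higher (41.1% of all genes were) and 0 lower (18.8%) in both. BAMBI, a decoy receptor, differed by 0.46 and 0.27 and SMAD7, an inhibitor of TGF-beta signalling, by 0.37 and 0.32. The median mean difference of the ID and BMP list was 0.13, or 0.05 after cyclic loess.

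Mesenchymal genes were higher in 2D for 13 of 13 tested (62.2% of all genes were), with a median of 0.36. In 3D 5 were higher (60.1% of all genes were), with a median of -0.06. VIM, vimentin, was at 13.24 with gefitinib and 12.75 without in 2D and at 13.32 with and without gefitinib in 3D. COL4A1, a basement membrane collagen, was at 8.75 with gefitinib and 7.94 without in 2D and at 7.08 with gefitinib and 7.24 without in 3D. CDH2, N-cadherin, was higher in both, by 0.39 and 0.20, as were TGFBI, by 0.52 and 0.14, and THBS1, by 0.20 and 0.36. Summed over the list, 5 were higher in both (41.1% of all genes were) and 0 lower (18.8%). Fibroblast markers were below the filter, and the mean of their 6 signals was 6.63 with gefitinib and 6.80 without in 2D and 6.48 with gefitinib and 6.56 without in 3D.

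Epithelial genes were higher in both for 7 of 17 (41.1% of all genes were) and lower for 4 (18.8%). CDH1, E-cadherin, was at 11.48 with gefitinib and 11.17 without in 2D and at 11.40 and 11.09 in 3D, so both gefitinib arrays exceeded both controls, but its second probe set did not lie on one side in both pairs. TJP1, a tight junction scaffold, differed by 0.51 and 0.18, and the claudins CLDN1 and CLDN3 by 0.10 and 0.50 and by 0.20 and 0.37. CDH1 contrasted with HCC827 3D by 0.51 ± 0.15 (adjusted p = 0.0452 in limma).

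Airway secretory genes went both ways. Of 12 tested, 5 were higher in both pairs (41.1% of all genes were) and 6 lower (18.8%). BPIFB1, a secreted protein of the airway lining, was at 9.37 with gefitinib and 8.76 without in 2D and at 10.35 and 9.95 in 3D, and MUC16, a membrane mucin, was at 7.53 and 7.19 in 2D and at 10.12 and 9.77 in 3D. These were higher while TFF1 and MUC5B, described above, and AGR2, at -0.08 and -0.32, were lower. BPIFA1 was at 7.56 with gefitinib and 7.55 without in 2D but at 9.90 with gefitinib and 8.98 without in 3D, and LYZ, lysozyme, differed by 0.04 and 0.47. Plasma protein genes, which A549 makes in common with liver, were higher in both for 7 of 16 (41.1% of all genes) and lower for 3 (18.8%). CFB, complement factor B, was at 11.43 with gefitinib and 10.68 without in 2D and at 12.24 and 12.05 in 3D, C5 differed by 0.26 and 0.56, and SERPINA1, alpha-1 antitrypsin, by -0.16 and -0.65.

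The NF-kB and chemokine list had 3 of 15 higher in both (41.1% of all genes were) and 4 lower (18.8%). LCN2, lipocalin-2, was at 11.33 with gefitinib and 10.77 without in 2D and at 12.30 and 12.03 in 3D, and CCL2 differed by 0.61 and 0.13, whereas the neutrophil chemokines CXCL1 (-0.19 and -0.08), CXCL3 (-0.50 and -0.11) and CXCL5 (-0.20 and -0.10) were lower in both. Interferon-stimulated genes had 6 of 14 higher in both (41.1% of all genes were) and 3 lower (18.8%). IFIT2 led them at 0.37 and 0.33, while OAS1 differed by -0.58 and 0.08. In the BCL2 family 7 of 14 were higher in both (41.1% of all genes were) and 3 lower (18.8%). BCL2L11, the pro-death protein BIM that ERK restrains, differed by 0.12 and 0.11, and MCL1, a survival protein, by 0.14 and 0.17.

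Ribosome and respiration genes differed little. Cytosolic ribosome genes were higher in 2D for 29 of 30 (62.2% of all genes were), with a median of 0.14. In 3D 14 were higher (60.1% of all genes were), with a median of -0.01. Medians were 0.03 in 2D and 0.08 in 3D for 29 mitochondrial ribosome genes, 0.04 and 0.03 for 38 genes of oxidative phosphorylation, and 0.00 and 0.07 for 21 genes of ribosome biogenesis. The median of the mean difference of each of these 4 lists changed sign under cyclic loess, to values from -0.05 to -0.02. Of 5 Wnt targets 3 were higher in both (41.1% of all genes were). Of 5 metallothioneins 2 were higher and 1 lower (18.8% of all genes) in both, with medians of 0.22 in 2D and -0.15 in 3D. Of 9 alveolar genes 2 were higher (41.1% of all genes were) and 3 lower (18.8%) in both. FOXA1, a lung and liver factor, differed by 0.10 and 0.49.

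Cyclic loess, which put the median mean difference of all tested genes at 0 against 0.04 as deposited, also moved other lists. The ERBB receptor list had 0.06 after loess against 0.14 as deposited, the cell cycle inhibitors 0.05 against 0.12, the AhR targets 0.02 against 0.10, the p53 targets 0.02 against 0.06 and the epithelial genes 0.01 against 0.08. Lists lower with gefitinib lay further from zero, at -0.18 against -0.10 for fatty acid synthesis, -0.15 against -0.07 for hypoxia and glycolysis, -0.15 against -0.07 for the IGF binding proteins and -0.09 against -0.05 for ERK transcription.

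**Figure D5:**
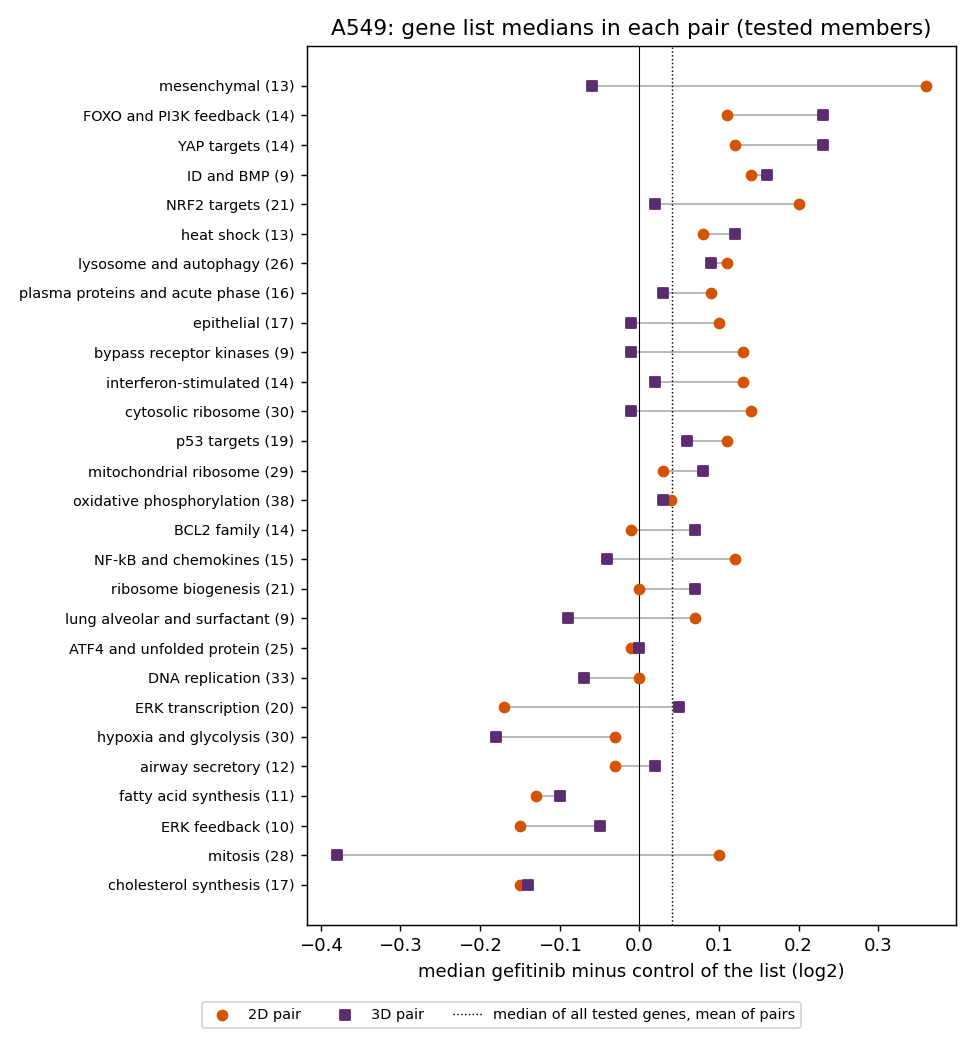
Median log2 gefitinib minus control difference (x axis) of gene lists with 9 or more tested members, in the A549 2D pair (orange circles) and the A549 3D pair (purple squares), sorted by the median of the mean of both, with the number tested in brackets. Cholesterol synthesis lies at -0.15 and -0.14, mitosis at 0.10 in 2D and -0.38 in 3D, and the dotted line marks the median of all tested genes.

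The 30 genes with the largest common differences were set beside HCC827 3D, which shares no array with A549. Of the 15 higher in both A549 pairs, 12 were also above control in HCC827 3D, where 34.2% of all genes were. These 12 include GALNTL6, KCNJ16 and HSPA2, below the array median on both HCC827 3D arrays, and GPC6, with a difference of 0.01. Of the 15 lower, 11 were also below control there, where 65.8% of all genes were. These 11 include TFF1, CEMIP, NID2 and C11orf86, which also lay below the median on both arrays. Both counts thus take in signs of low signals. The contrast of lines passed for 6 of the 15 higher genes and 7 of the 15 lower ones, against 19.5% of all genes. It uses the same A549 differences by which these 30 genes were chosen, so its counts are a description and not an independent check. ALPK2, MATN2, SNX18 and GALNTL6 had an A549 difference above that of HCC827 3D, which was -0.03, -0.04, -0.26 and 0.07. ALPK2 was at 6.32 with gefitinib and 6.36 without there, below the array median. MATN2, at 6.87 and 6.91, and GALNTL6, at 5.95 and 5.88, were below it too. TP53INP1 was higher in both lines but by more in HCC827 3D, at 11.27 with gefitinib and 9.77 without, as was NATD1, at 8.78 and 6.86. LBH did not pass, at a contrast of -0.13 ± 0.18 (adjusted p = 0.644 in limma), with 9.44 with gefitinib and 8.55 without in HCC827 3D.

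CEACAM5 and CD55 went opposite ways in the lines. CEACAM5 was at 9.39 with gefitinib and 8.43 without in HCC827 3D, a contrast of -1.47 ± 0.17 (adjusted p = 0.000724 in limma), and CD55 was at 10.05 with gefitinib and 9.59 without, a contrast of -0.87 ± 0.15 (adjusted p = 0.0045 in limma). STC1, ERO1A and MUC5B were lower in both lines but by more in HCC827 3D, with contrasts of 1.52, 1.47 and 1.07. TFF1 was lower by more in A549, with a contrast of -0.81, and MALAT1, at 13.97 with gefitinib and 13.92 without in HCC827 3D, had a contrast of -0.56. TFF1 was below the array median in HCC827 3D, at 6.79 with gefitinib and 7.00 without.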

How the data were processed

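RNA of 8 cultures was measured on Affymetrix 3' in vitro transcription arrays, 1 array per condition. The deposited values are log2 signals. Per the submitters' processing notes, the authors used R 3.2.1 and RMA. Of 49495 probe sets, 102 were controls, 45284 had 1 gene symbol and 1333 several in the platform annotation, and 45228 matched a RefSeq gene. For each gene the probe set with the highest mean over the 8 arrays was kept, giving 18244 genes, of which 11056 lay above the array median on 2 or more of the 4 A549 arrays. limma 3.58.1 (R 4.3.3; lmFit, eBayes with a trend) was fitted on the 4 A549 arrays with culture and treatment, two-sided, with Benjamini-Hochberg adjustment over all tested genes and a threshold of 0.05. The prior added 8.61 degrees of freedom to 1 residual degree. A fit with the 2 HCC827 3D arrays gave the difference of responses, the mean of both A549 pairs minus the HCC827 3D pair. The labels name no separate cultures behind a condition, and the number of arrays limits the precision. Named genes were the 15 each way with the largest smaller-of-both-pairs difference of one sign, up to 6 members of each of 39 gene lists by size of mean difference, all tested ERK, receptor and ligand genes, 8 fixed genes and up to 5 each way from the contrast of lines; further list members are given in places and were chosen after their values were seen. The members, lists and alternatives were chosen with earlier results of these data known. Promoters came from RefSeq (GRCh38.p14). Alternatives changed the probe set rule, filter, scaling, variance prior, arrays and culture term.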

Additional observations from a re-analysis of the deposited data

Results flagged for a closer look

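In A549 the 2D and 3D pairs lay on opposite sides of zero for several genes and lists; with 1 array per condition these differences between cultures were not tested. On the probe set kept, EGFR differed by 0.15 in 2D and -0.22 in 3D and ETV5 by -0.31 and 0.21. SPRY4 differed by -0.14 and 0.10 and CCND1 by -0.18 and 0.23. Of their probe sets, 4 of 8 for EGFR, 2 of 4 for ETV5 and 2 of 3 for SPRY4 were lower in both pairs. The mitosis median was 0.10 in 2D and -0.38 in 3D, the median of the IGF binding proteins 0.11 and -0.34, and that of the metallothioneins 0.22 and -0.15.

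The limma contrast of the A549 and HCC827 3D responses passed the threshold for 2157 genes, under the assumption that the single HCC827 3D pair varies as A549 does; cyclic loess gave 1356 and all 8 arrays gave 0 (332 at an unadjusted p under 0.05). Among genes higher in both A549 pairs the contrast, A549 minus HCC827 3D in log2 units, was 0.74 for ALPK2, 0.59 for MATN2, 0.83 for SNX18, 0.49 for GALNTL6, -0.86 for TP53INP1 and -1.44 for NATD1. Among those lower in both it was -0.81 for TFF1, -0.56 for MALAT1, -0.87 for CD55, -1.47 for CEACAM5, 1.52 for STC1, 1.07 for MUC5B and 1.47 for ERO1A. ALPK2, MATN2, GALNTL6 and TFF1 lay below the array median on both HCC827 3D arrays. For genes of signalling, growth and adhesion the contrast was 3.06 for DUSP6, 1.74 for ETV5, 0.72 for SPRY4, 1.80 for CCND1, 1.18 for MKI67 and 0.51 for CDH1.

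The largest contrasts with A549 above HCC827 3D were, after DUSP6, 3.04 for RRM2, 2.61 for DDIT4, 2.58 for PCLAF, a replication clamp partner, and 2.39 for NDRG1, a hypoxia-induced gene. NDRG1 differed by -0.03 in 2D and -0.09 in 3D in A549, against -2.45 in HCC827 3D. The largest the other way were -1.99 for VTCN1, an inhibitory ligand of T cells, -1.97 for RGCC, -1.96 for PHACTR2, -1.85 for BDNF, a neurotrophin, and -1.77 for SYTL4. BDNF was at 9.28 with gefitinib and 9.35 without in A549 2D and at 9.36 and 9.34 in A549 3D, against 9.24 with gefitinib and 7.41 without in HCC827 3D.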

How the results depend on the processing

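The count of genes called in A549, 0 with the arrays as deposited, stayed 0 with the mean of all probe sets (1048 genes at an unadjusted p under 0.05), no variance trend (1363), a robust prior (1373), all 8 arrays (97), no culture term (5) and, chosen after seeing the data, the probe set with the highest mean over the A549 arrays (1394), all in limma. It was 2 with the largest-variance probe set, 2 with genes above the median on all 4 arrays, 10 with no filter, 53 with median centring and 76 with cyclic loess, and a size rule of 0.5 in both pairs with no fit gave 8. The 82 higher, 16 lower and 15 opposite genes at 0.3 became 24, 6 and 4 with the mean of probe sets, 40, 34 and 18 with cyclic loess, and 125, 10 and 14 with median centring. CCND1 was -0.06 with the mean of probe sets and with cyclic loess, and SPRY4 was 0.00 (above zero) with median centring, each around a value near zero. The contrast of lines, 2157 genes, was 1356 with cyclic loess, of which 635 rather than 1843 were higher in A549, and 0 with all 8 arrays (332 at an unadjusted p under 0.05). That last setting adds the HCC827 2D arrays that go against their labels, and there EGFR was -0.04, DUSP6 -0.42, ETV5 -0.41 and CCND1 -0.34. The EGFR contrast of lines was -0.01 with the probe set of highest A549 mean. For the other reversals the cause was not tested.

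The labels give no replicate numbers, and the main fit is already paired by culture. Leaving out 1 array leaves 1 pair and no residual degree of freedom, so each pair's own difference stands in its place. With 1 array per condition no scatter between cultures of a condition was measured.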
